A study of Homo sapiens with 24 samples.

Results

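The mRNAs of 48 drug-metabolizing enzymes were followed in HepG2 cells, a line established from a human liver tumour and widely used as a stand-in for hepatocytes. They are the protein-coding genes whose symbols name cytochrome P450s (CYP, with CYP51A1 left out), UDP-glucuronosyltransferases (UGT), glutathione S-transferases (GST), cytosolic sulfotransferases (SULT) or aldo-keto reductases of family 1 (AKR1), and which were selected on their mean level over the 2 siControl libraries at 0 h, set at 1 CPM or more. CPM is the reads of a gene scaled to a fixed total of gene reads per library. Of the 58676 gene rows, 113 fit the symbols and 48 also reached the minimum: 17 of 55 CYP, 6 of 17 UGT, 11 of 17 GST, 7 of 13 SULT and 7 of 11 AKR1 genes. The other 65 were below it, and 30 of those had no read in either siControl 0 h library. Among these were UGT1A4, UGT1A9 and SULT1A4, whose reads may be lost in counting where sequence is shared or near-identical. For such genes 0 reads need not mean no expression. Every culture was transfected with siRNA, either a negative control (siControl) or 1 aimed at the mRNA of IGF2BP1, IGF2BP2 or IGF2BP3 (named siIGF2BP1, siIGF2BP2 and siIGF2BP3). These 3 proteins form a family that binds mRNA and is known to affect its stability. Actinomycin D blocks RNA polymerases and was given at 5 µg/ml for 0, 3 or 6 h before collection. Polyadenylated RNA of 12 groups was sequenced, with 2 libraries in each group. An siRNA knockdown is a partial and transient lowering of an mRNA, here in whole cultures of a tumour line. The study calls its replicates independent, but no label says that they came from separate cultures, so p-values measure the spread between these libraries. In bulk RNA, fewer cells that express a gene and less RNA per cell cannot be told apart.

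Drug metabolism in the liver runs in phases. Cytochrome P450s and aldo-keto reductases oxidize or reduce a compound, and UGT, GST and SULT enzymes then attach glucuronic acid, glutathione or sulfate so that it can be excreted. Many of the same enzymes act on bile acids, steroids, vitamin D, retinoids and eicosanoids, and liver is the main site of most of them.

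Depth was 31843248 to 74252042 gene reads and 50889 to 119088 reads of the ERCC synthetic spike-in RNA per library, and the members took 0.208% to 0.332% of gene reads. Replicates differed by more than sampling noise in every group (chi-square per degree of freedom 3.24 to 8.49). Each siRNA lowered its target at 0 h, to 20.9% of siControl for IGF2BP1, 26.1% for IGF2BP2 and 35.4% for IGF2BP3. Of the other family members, IGF2BP3 stood at 115% after siIGF2BP1 (edgeR adjusted p = 0.000133) and IGF2BP1 at 109% after siIGF2BP3 (edgeR adjusted p = 0.00418). The remaining differences of this kind did not pass. The summed level of 10 hepatoma markers (AFP, ALB, APOB and others) was 68625 to 102148 CPM over the libraries. The summed level of 10 markers of other cells was 31.0 to 45.1 CPM, most of it ACTA2, and 6 of the 10 were below 1 CPM in every library.

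The AKR1 enzymes held 61.0% of the members' reads in siControl cells at 0 h, and AKR1C1 alone held 37.8%. CYP genes held 13.8%, GST genes 10.7%, SULT genes 9.14% and UGT genes 5.41%. Reads grow with transcript length, so levels of different genes were compared per kilobase of the annotated canonical transcript. On that scale AKR1C1, a reductase of ketosteroids and of carbonyl compounds, stood at 126 CPM per kb. GSTO1, an omega-class transferase, stood next to it at 117 CPM per kb. AKR1B10, a retinal and aldehyde reductase that is often raised in liver tumours, followed at 77.7 CPM per kb, and AKR1C3, a 17-ketosteroid reductase, at 74.2 CPM per kb. The transcript taken for AKR1C1 is 6543 nt long and that for AKR1C3 1186 nt. Which transcripts these cells use was not checked, so this order depends on the annotated lengths. AKR1A1, the aldehyde reductase found in most tissues, stood at 64.6 CPM per kb and CYP27A1, the mitochondrial sterol 27-hydroxylase of bile acid synthesis, at 60.4 CPM per kb. The lowest member per kilobase was GSTO2 at 0.313 CPM per kb. These levels chose the members and are a description without a test.

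Per library, AKR1C1 had 747 and 897 CPM in siControl at 0 h (822 ± 106, SD, n = 2) and AKR1C2, a related 3-ketosteroid reductase, 116 and 136 CPM. Relative to their means, these replicates differed more than those of most members. CYP27A1 had 112 and 117 CPM, CYP2W1, an orphan P450 known from fetal and tumour tissue, 42.7 and 43.9 CPM, and CYP20A1, another orphan P450, 24.4 and 26.1 CPM. SULT2A1, the sulfotransferase of steroids and bile acids, had 93.8 and 93.5 CPM, SULT1A1, the main phenol sulfotransferase, 75.0 and 72.4 CPM, and its close copy SULT1A2 25.1 and 24.6 CPM. Among the glucuronosyltransferases, UGT2B4, which acts on bile acids, had 45.1 and 45.3 CPM, UGT2B7, which acts on opioids and steroids, 33.0 and 33.1 CPM, and UGT2B10, which acts on amines, 32.5 and 28.7 CPM. GSTO1 had 92.7 and 97.5 CPM, GSTK1, the kappa-class transferase, 44 and 42.4 CPM, and GSTM4, a mu-class transferase, 24.9 and 26.4 CPM. Just inside the minimum lay SULT1A3 (1.02 CPM), GSTM1 (1.1), SULT1C4 (1.24), CYP11A1 (1.28) and SULT1E1 (1.47). Just outside it lay CYP2S1 (0.888 CPM), AKR1B15 (0.834), SULT1B1 (0.538), CYP2R1 (0.487) and CYP39A1 (0.473). The settings of the authors' counting for reads in overlapping or repeated sequence were not given in the sources used here, so values of near-identical or overlapping genes are uncertain: AKR1C1 to AKR1C3, the CYP4F genes, the UGT2B genes, GSTA1 and GSTA2, GSTM1 and GSTM2, the SULT1A genes, and UGT1A1, which shares exons with its neighbours.

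**Figure D1:**
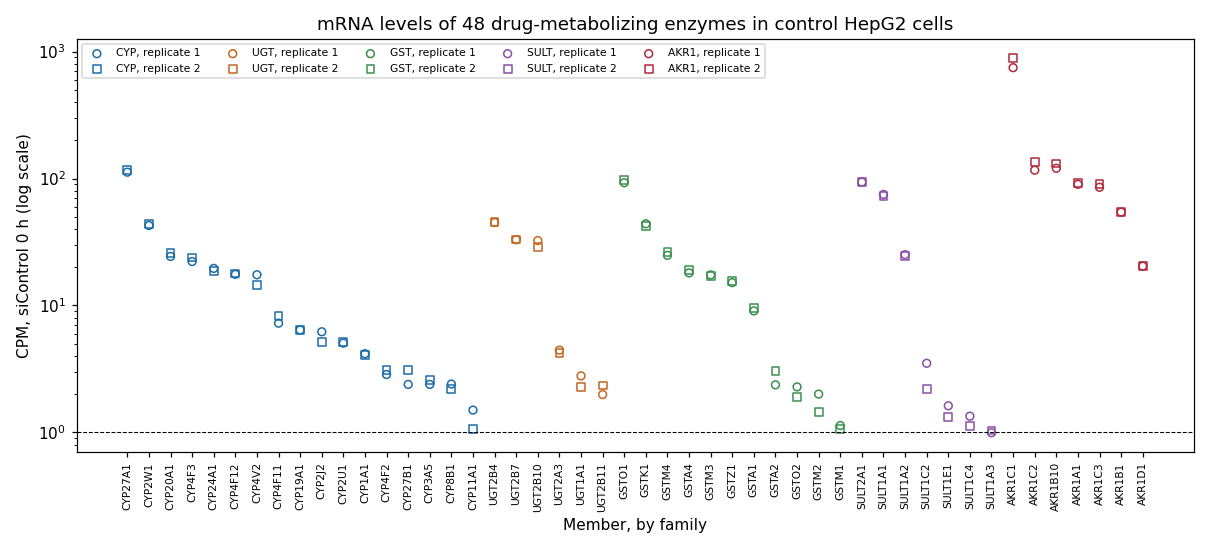
Levels of the 48 members in the 2 siControl libraries at 0 h, in CPM on a log axis, by family (colour), with circles for replicate 1 and squares for replicate 2. The dashed line is the minimum of 1 CPM. CPM is not divided by transcript length, so heights compare libraries of 1 gene, and AKR1C1 stands highest at 822 CPM.

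The first comparison asked whether knockdown of IGF2BP1 changed the members before actinomycin D. Of the 48 members, 11 were higher and 6 lower than in siControl by edgeR's quasi-likelihood test with Benjamini-Hochberg adjustment over the 13136 genes tested, beside 15.9% of all genes called (9.43% higher and 6.5% lower). All 5 CYP4 members were called higher, as were 3 of the 7 AKR1 members. Of the 17 CYP members as a whole, 7 were higher and 1 lower. Among the other CYP members, 1 of 5 in families 1 to 3 was higher, and 1 of 7 in families 7 and above. No GST or SULT member was called higher, although 3 of 11 GST and 3 of 7 SULT members had positive differences. In families this small, 0 calls is near the share of 9.43%. The median log2 difference of the members was 0.01, as it was for all genes. The siControl 0 h libraries that set the minimum are also the control arm here, which favours siControl for members near 1 CPM. The comparisons between knockdowns and the libraries at 3 and 6 h did not enter the rule.

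The CYP4 enzymes are omega-hydroxylases of fatty acids, leukotrienes and vitamin K. CYP4F12 had 17.6 and 17.9 CPM in siControl and 28 and 30.5 CPM after siIGF2BP1. The siIGF2BP1 libraries were clearly apart from the control, a log2 difference of 0.73 (SE 0.071, edgeR adjusted p = 4.47e-10). CYP4F3, the leukotriene B4 hydroxylase, had 22.2 and 23.9 CPM in siControl and 34.3 and 32.2 CPM after siIGF2BP1, a log2 difference of 0.55 (edgeR adjusted p = 7.74e-08). CYP4F2, the vitamin K1 hydroxylase, rose from 2.86 and 3.12 CPM to 5.76 and 4.49 CPM, the largest rise among the members on the log2 scale at 0.81 (SE 0.166, edgeR adjusted p = 0.000441). Without siIGF2BP1 replicate 1 its difference was 0.61 and no longer passed (edgeR adjusted p = 0.0572). The remaining CYP4 genes, named here after their values were seen, were CYP4V2, a fatty acid hydroxylase, at a log2 difference of 0.30 and CYP4F11 at 0.36. CYP4V2 lost the call without siControl replicate 2 (0.17, adjusted p = 0.364) or siIGF2BP1 replicate 1 (0.24, 0.221), and CYP4F11 without siControl replicate 1 (0.27, 0.338), siControl replicate 2 (0.45, 0.0633) or siIGF2BP1 replicate 2 (0.17, 0.582). CYP4F3, CYP4F12, CYP4F2 and CYP4F11 lie in 1 cluster on chromosome 19 (hg38, 15640897 to 15934867).

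AKR1C1 (chromosome 10, 4963253 to 4983283 in hg38) rose from 747 and 897 CPM to 1134 and 1219 CPM, with no overlap between the groups. Its log2 difference was 0.54 (SE 0.072, edgeR adjusted p = 4.73e-07). AKR1C2, its neighbour (4987775 to 5018031), went from 116 and 136 CPM to 197 and 179 CPM, a log2 difference of 0.59 (edgeR adjusted p = 2.07e-05). AKR1B10 on chromosome 7 went from 121 and 131 CPM to 155 and 154 CPM (log2 difference 0.31, edgeR adjusted p = 0.00044). AKR1C3, which lies beside AKR1C1 and AKR1C2, had 85.4 and 90.7 CPM in siControl and 89.2 and 93.2 CPM after siIGF2BP1, a log2 difference of 0.07 (SE 0.064, edgeR adjusted p = 0.574). AKR1D1, the 5-beta-reductase of bile acid synthesis, fell from 20.4 and 20.6 CPM to 13.2 and 14.4 CPM, a log2 difference of -0.56 (SE 0.084, edgeR adjusted p = 3.56e-06). The family therefore held both rises and a fall.

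Outside these groups, CYP2W1 rose from 42.7 and 43.9 CPM to 58.9 and 59.5 CPM (log2 difference 0.47, edgeR adjusted p = 2.99e-08) and CYP27A1 from 112 and 117 CPM to 141 and 139 CPM (0.31, edgeR adjusted p = 3.29e-07). UGT2B4 rose and UGT2B10 fell, so the UGT2B genes did not move as a block. UGT2B4 had 51.5 and 51.8 CPM after siIGF2BP1 (log2 difference 0.21, edgeR adjusted p = 0.00739, lost without either siControl library or siIGF2BP1 replicate 2 at 0.20 to 0.21), and UGT2B10 had 24.9 and 24.5 CPM (-0.29, edgeR adjusted p = 0.00184, but -0.19 and adjusted p = 0.119 without siControl replicate 1). Among the lower members were GSTZ1, the zeta-class transferase that is an isomerase of tyrosine breakdown, at 15.1 and 15.7 CPM in siControl and 11.7 and 12.1 CPM after siIGF2BP1 (-0.36, edgeR adjusted p = 0.0025), and SULT2A1 at 81.5 and 80.6 CPM after siIGF2BP1 (-0.19, edgeR adjusted p = 0.00433). GSTZ1 lost the call without siIGF2BP1 replicate 1 (log2 difference -0.32, adjusted p = 0.0608). SULT1C4, a sulfotransferase known from fetal tissues, had the largest fall, -1.20 (SE 0.368, edgeR adjusted p = 0.0207), but rested on 1.34 and 1.13 CPM against 0.581 and 0.457 CPM. Without siControl replicate 1 its difference was -1.07 (adjusted p = 0.138), and without siIGF2BP1 replicate 1 it was -1.40 (adjusted p = 0.087). Of the 17 calls, 9 held without each of the 4 libraries in turn: AKR1B10, AKR1C1, AKR1C2, AKR1D1, CYP27A1, CYP2W1, CYP4F12, CYP4F3 and SULT2A1. With libraries scaled to the spike-in in place of TMM, 12 of the 17 calls held, and each of the 17 kept its sign.

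**Figure D2:**
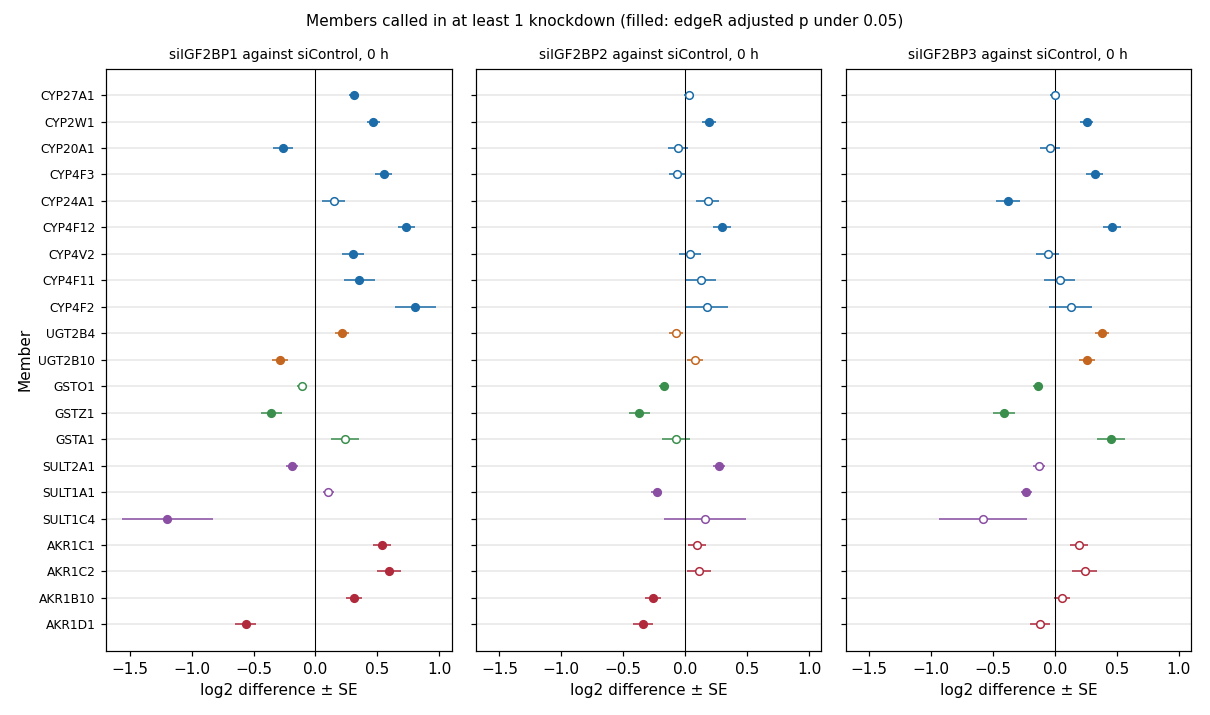
Log2 differences (points, bars ± SE) from siControl at 0 h for the members called in at least 1 knockdown, with 1 panel per knockdown, 1 row per gene and colour by family. Filled points passed edgeR's adjusted p of 0.05. CYP4F12 and CYP2W1 are filled to the right of 0 in each panel and GSTZ1 to the left, while AKR1C1 and AKR1C2 are filled only for siIGF2BP1.

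After knockdown of IGF2BP2, 3 members were higher and 5 lower, beside 12.1% of all genes called (6.65% higher and 5.47% lower). The rise with the smallest adjusted p was that of SULT2A1, from 93.8 and 93.5 CPM to 110 and 115 CPM, a log2 difference of 0.28 (SE 0.047, edgeR adjusted p = 4.71e-05). CYP4F12 had 20.9 and 22.4 CPM, a log2 difference of 0.29 (edgeR adjusted p = 0.00415), and CYP2W1 had 49.6 and 48.8 CPM, a difference of 0.19 (edgeR adjusted p = 0.0165). Both were called with all libraries, but CYP4F12 was not called without siIGF2BP2 replicate 2 (0.24, adjusted p = 0.0966), nor CYP2W1 without any 1 of the 4 libraries (0.18 to 0.21). GSTZ1 had 11.8 and 11.9 CPM (log2 difference -0.37, edgeR adjusted p = 0.00216) and SULT1A1 61.4 and 63.6 CPM against 75.0 and 72.4 CPM (-0.23, edgeR adjusted p = 0.000385). AKR1D1 fell to 15.7 and 16.6 CPM (-0.34, edgeR adjusted p = 0.00349) and AKR1B10 to 107 and 103 CPM (-0.26, edgeR adjusted p = 0.0054). AKR1D1 was lost without siIGF2BP2 replicate 1 (-0.30, adjusted p = 0.0871), and AKR1B10 without siControl replicate 2 (-0.20, adjusted p = 0.143) or siIGF2BP2 replicate 2 (-0.23, adjusted p = 0.0809). AKR1C1, at 870 and 874 CPM, lay within the siControl range. CYP8B1, the sterol 12-alpha-hydroxylase that sets the type of bile acid made, had 2.41 and 2.21 CPM in siControl and 1.29 and 1.24 CPM after siIGF2BP2, groups that did not overlap but did not pass (log2 difference -0.86, edgeR adjusted p = 0.0636). GSTO1 was the remaining lower member, at 83.7 and 84.1 CPM (-0.17), and was lost without siControl replicate 2 (-0.14, adjusted p = 0.0795). The count of calls was 5 without siControl replicate 2 or siIGF2BP2 replicate 2. On the spike-in scale only 2 of the 8 calls held, both of them rises, and each of the 8 kept its sign. All genes had a median log2 difference of 0.10 there.

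After knockdown of IGF2BP3, 6 members were higher and 4 lower, beside 9.39% of all genes called (4.93% higher and 4.47% lower). UGT2B4 rose to 60.1 and 56.9 CPM from 45.1 and 45.3 CPM, a log2 difference of 0.38 (SE 0.057, edgeR adjusted p = 8.86e-06), and CYP4F12 rose to 25.1 and 23.5 CPM (0.46, edgeR adjusted p = 2.11e-05). GSTA1, the main alpha-class transferase of liver, had 9.07 and 9.60 CPM in siControl and 12.8 and 12.7 CPM after siIGF2BP3 (0.45, edgeR adjusted p = 0.00638). CYP4F3 had 28.3 and 29.2 CPM (0.32, edgeR adjusted p = 0.00141). These were the largest rises among the members called. UGT2B10 had 35.6 and 37.3 CPM (0.26) and CYP2W1 49.8 and 53.5 CPM (0.26), and both were called. GSTZ1 fell to 11.2 and 11.9 CPM (-0.41, edgeR adjusted p = 0.00105), SULT1A1 to 63.9 and 61.1 CPM (-0.23, edgeR adjusted p = 0.000568) and GSTO1 to 88.5 and 84.2 CPM (-0.13, edgeR adjusted p = 0.03). CYP24A1, the 24-hydroxylase that breaks down active vitamin D, fell from 19.6 and 18.6 CPM to 13.5 and 15.9 CPM (-0.38, edgeR adjusted p = 0.00649). CYP4F12, GSTZ1, SULT1A1 and UGT2B4 kept their calls without each of the 4 libraries in turn. Without siControl replicate 1 the calls of CYP24A1 (-0.34, adjusted p = 0.0921), GSTA1 (0.42, 0.0866) and CYP4F3 (0.27, 0.0508) were lost, and without siControl replicate 2 those of UGT2B10 (0.17, 0.256) and GSTO1 (-0.10, 0.307). Without siIGF2BP3 replicate 1 CYP24A1 (-0.26, adjusted p = 0.232) and GSTA1 (0.45, 0.0569) were lost, and without siIGF2BP3 replicate 2 CYP2W1 (0.20, 0.0699), UGT2B10 (0.22, 0.104) and GSTO1 (-0.10, 0.323). On the spike-in scale 6 of the 10 calls held, all of them rises, and each of the 10 kept its sign. The falls did not pass there.

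The comparisons with siControl share their control libraries. CYP4F12 was higher by 0.73, 0.29 and 0.46 (log2) after siIGF2BP1, siIGF2BP2 and siIGF2BP3, CYP2W1 by 0.47, 0.19 and 0.26, and GSTZ1 lower, at -0.36, -0.37 and -0.41. AKR1C1 differed by 0.54, 0.09 and 0.19, and AKR1C2 by 0.59, 0.11 and 0.24, of which the first of each passed with all libraries. The siIGF2BP3 values rested on single libraries: AKR1C1 was at 0.33 without siControl replicate 2 (adjusted p = 0.0129) and 0.29 without siIGF2BP3 replicate 2 (0.031), and AKR1C2 at 0.42 without siIGF2BP3 replicate 2 (0.0122). SULT2A1 differed by -0.19, 0.28 and -0.13, of which the first and second passed in opposite directions.

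**Figure D3:**
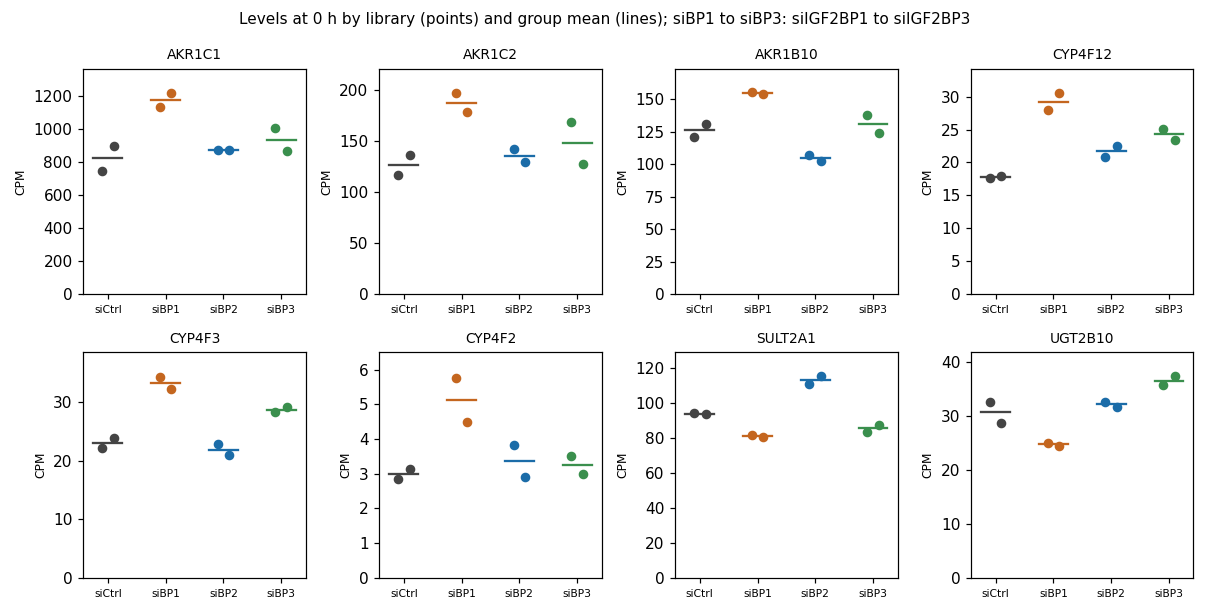
CPM at 0 h of 8 members in the 2 libraries (points) of each condition, with group means (lines) and axes from 0 (siCtrl, siControl; siBP1 to siBP3, siIGF2BP1 to siIGF2BP3). The siIGF2BP1 points stand above all other libraries for AKR1C1, AKR1C2, AKR1B10, CYP4F12, CYP4F3 and CYP4F2, and below all others for SULT2A1 and UGT2B10.

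The knockdowns were then set against each other, in comparisons that hold no siControl library. Against siIGF2BP2, siIGF2BP1 had 14 members higher and 3 lower, beside 18.7% of all genes called (9.65% higher and 9.04% lower). CYP8B1 had the largest rise, 2.24 and 2.47 CPM against 1.29 and 1.24 CPM (log2 difference 0.90, SE 0.311, edgeR adjusted p = 0.0367). UGT1A1, the bilirubin glucuronosyltransferase, followed with 3.06 and 3.49 CPM against 2.03 and 1.94 CPM (0.72, edgeR adjusted p = 0.00464). Both are low transcripts: CYP8B1 was not called without any 1 of the 4 libraries (0.83 to 0.99), and UGT1A1 was not called without siIGF2BP1 replicate 2 (0.62, adjusted p = 0.0564). CYP4F3 was higher by 0.62 (edgeR adjusted p = 7.55e-09) and CYP4F2 by 0.63 (edgeR adjusted p = 0.00536), the latter not called without siIGF2BP1 replicate 1 (0.43, adjusted p = 0.201) or siIGF2BP2 replicate 2 (0.45, adjusted p = 0.145). AKR1B10 was higher by 0.57 (SE 0.066, edgeR adjusted p = 1.31e-08), with 155 and 154 CPM against 107 and 103 CPM. SULT1A1 was higher by 0.33 (edgeR adjusted p = 7.24e-07). The 3 lower members were SULT2A1 (-0.47, edgeR adjusted p = 1.42e-09), UGT2B10 (-0.37, edgeR adjusted p = 7.74e-05) and SULT1C4 (-1.36, edgeR adjusted p = 0.00682). SULT1C4 was lost without siIGF2BP1 replicate 2 (-1.23, adjusted p = 0.067) or siIGF2BP2 replicate 1 (-1.14, adjusted p = 0.103). With spike-in scaling the split was 6 higher and 5 lower, around a median of all genes of -0.12. The share of all genes called on that scale is not given here, so this split has no background beside it.

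Against siIGF2BP3, siIGF2BP1 had 11 members higher and 3 lower, beside 14.3% of all genes called (8.31% higher and 6% lower). CYP24A1 was at 21.3 and 20.5 CPM against 13.5 and 15.9 CPM, a log2 difference of 0.53 (SE 0.096, edgeR adjusted p = 0.000105). CYP4F2 differed by 0.68 (edgeR adjusted p = 0.00425), CYP4V2 by 0.36 (edgeR adjusted p = 0.0046) and AKR1C2 by 0.35 (edgeR adjusted p = 0.0112). None of the last 3 held throughout: without siIGF2BP1 replicate 1 they were at 0.48 (adjusted p = 0.174), 0.30 (0.114) and 0.29 (0.156), without siIGF2BP3 replicate 2 CYP4F2 was at 0.58 (0.0816) and AKR1C2 at 0.17 (0.411), and without siIGF2BP3 replicate 1 CYP4V2 was at 0.35 (0.0512). UGT2B10 was lower, 24.9 and 24.5 CPM against 35.6 and 37.3 CPM (-0.54, SE 0.067, edgeR adjusted p = 1.45e-07). AKR1D1 was lower by 0.44 on the log2 scale, at 13.2 and 14.4 CPM against 18.9 and 18.6 CPM, and UGT2B4 differed by -0.17 (edgeR adjusted p = 0.0424), a call lost without any 1 of the 4 libraries (-0.13 to -0.20). AKR1D1, CYP24A1, CYP27A1, SULT1A1 and UGT2B10 were called without each library in turn, and 7 members in all were called without siIGF2BP3 replicate 2. With spike-in scaling 2 were higher and 4 lower, around a median of all genes of -0.11. The share of all genes called on that scale is again not given.

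Between siIGF2BP2 and siIGF2BP3, 2 members were higher in siIGF2BP2 and 5 in siIGF2BP3, beside 9.19% of all genes called (4.91% and 4.28%). SULT2A1 was higher in siIGF2BP2 by 0.40 (SE 0.048, edgeR adjusted p = 6.78e-08) and CYP24A1 by 0.56 (edgeR adjusted p = 4.9e-05). Lower in siIGF2BP2 were UGT1A1 (-0.87, SE 0.187, edgeR adjusted p = 0.00114), UGT2B4 (-0.45, edgeR adjusted p = 2.8e-07), GSTA1 (-0.53, edgeR adjusted p = 0.00148), CYP4F3 (-0.39, edgeR adjusted p = 0.000126) and AKR1B10 (-0.32). GSTA1 lost its call without siIGF2BP2 replicate 1 (-0.40, adjusted p = 0.107), and AKR1B10 without siIGF2BP3 replicate 1 (-0.24, adjusted p = 0.0723). All 7 calls held on the spike-in scale.

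The libraries collected after 3 and 6 h of actinomycin D gave a second reading of each knockdown on samples that did not choose the members, although levels there also carry any change in loss. Over the mean of both times, siIGF2BP1 had 14 members higher and 10 lower than siControl (34.9% of all genes called, 18.3% higher and 16.6% lower), siIGF2BP2 had 3 and 15 (29.1%, 13.4% and 15.7%), and siIGF2BP3 had 9 and 9 (28.8%, 14% and 14.8%). Of the members called at 0 h, 16 of 17, 6 of 8 and 9 of 10 were called in the same direction. In siIGF2BP1 the log2 differences were 0.78 for CYP4F2, 0.56 for CYP4F12, 0.55 for AKR1C2, 0.50 for AKR1C1 and 0.50 for CYP4F3, and -0.48 for AKR1D1. SULT1C4 was the member not called there (-0.09, edgeR adjusted p = 0.853). In siIGF2BP3, AKR1C1 and AKR1C2 were higher by 0.34 and 0.37 in these libraries, and both passed. In siIGF2BP2, CYP2W1 (0.05, edgeR adjusted p = 0.331) and CYP4F12 (0.06, edgeR adjusted p = 0.43) did not pass. UGT2B10 after siIGF2BP3, higher at 0 h, was not higher here (0.00, edgeR adjusted p = 0.96), with 32.5 and 37.8 CPM at 3 h against 34.3 and 33.1 CPM in siControl. Libraries of 1 replicate number in a condition may come from 1 transfected plate split over the times. AKR1C1 kept its replicate order at all 3 times in siControl and siIGF2BP1 (replicate 2 higher) and in siIGF2BP3 (replicate 1 higher). With the 3 and 6 h libraries of a number summed, the counts were 14 higher and 10 lower, 3 and 13, and 7 and 9 (29%, 26.1% and 27.1% of all genes called), and 16 of 17, 6 of 8 and 8 of 10 of the 0 h calls held their direction and call.

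The next question was how fast the mRNAs were lost once transcription stopped. A slope is the log2 change over 6 h of actinomycin D, with libraries scaled to the spike-in, which was added in proportion to total RNA and so does not count cells. In siControl, 28 members fell and 0 rose, beside 80.6% of all genes called (80.3% lower and 0.251% higher). The siControl 0 h libraries that chose the members are the starting point of these slopes and of the slope differences, which favours a fall in siControl for members near 1 CPM such as SULT1C4. The median slope was -0.31 for the members and -0.88 for all genes tested, and the median mRNA remaining at 6 h was 80.8% for the members and 54.1% for all genes. When libraries were instead scaled to the typical mRNA (TMM), which sets that mRNA to no change, 32 members rose and 2 fell relative to it. The share of all genes called on the TMM scale is not given here. Without siControl 0 h replicate 1, 18 members fell.

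By family, to be read beside the 80.3% of all genes that fell, 13 of 17 CYP members fell (median slope -0.75), as did 5 of 7 SULT members (-0.38), 4 of 7 AKR1 members (-0.26), 3 of 6 UGT members (-0.28) and 3 of 11 GST members (-0.12). Differences between families were not tested. Median half-lifetimes, computed for members with a positive decay rate, were 6.56 h for CYP, 17.0 h for UGT, 17.3 h for SULT, 24.8 h for AKR1 (5 of 7 members) and 28.3 h for GST (5 of 11 members). Values beyond the 6 h of sampling are extrapolated.

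CYP8B1 was lost fastest: 33.8% and 37.2% of its 0 h level remained at 3 h and 11.7% and 17.0% at 6 h, a slope of -2.80 (SE 0.440, edgeR adjusted p = 4.98e-06) and a half-lifetime of 2.07 h. CYP1A1, the dioxin-inducible P450, had 40.9% and 41.4% left at 6 h (slope -1.28, edgeR adjusted p = 2.83e-05). These genes were below 5 CPM and were named after their values were seen. Among members at 5 CPM or more, CYP24A1 fell fastest, with 50.05% and 41.2% left at 6 h and a slope of -1.13 (SE 0.141, edgeR adjusted p = 2.05e-07). CYP2U1, a fatty acid hydroxylase, had 48.7% and 43.8% left (-1.11), CYP19A1, the aromatase that makes oestrogens, 56.5% and 38.8% (-1.07), and CYP20A1 51.1% and 55.1% (-0.91). All 4 fell, with half-lifetimes of 5.41, 6.12, 5.09 and 6.86 h, while on the TMM scale CYP2U1, CYP19A1 and CYP20A1 did not differ from the typical mRNA beyond the spread (-0.24, -0.21 and -0.04). SULT1C4 (slope -1.33) and SULT1C2 (-1.05) were also called, but both were lost without siControl 0 h replicate 1 (-0.94 with adjusted p = 0.0608, and -0.47 with adjusted p = 0.202).

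At the other end stood members whose level hardly moved. The 4 highest slopes at 5 CPM or more belonged to AKR1B1, the aldose reductase (0.07, SE 0.080, edgeR adjusted p = 0.428), CYP2W1 (0.02, edgeR adjusted p = 0.894), GSTM3, a mu-class transferase (0.02, edgeR adjusted p = 0.881), and CYP4F3 (-0.08, edgeR adjusted p = 0.461). AKR1B1 had 105% and 105% of its 0 h level at 6 h, and CYP4F3 had 94.6% and 94.9%. AKR1C1, the most read member, kept 80.5% and 86.8% at 6 h. Its slope of -0.26 passed narrowly (edgeR adjusted p = 0.0493) and was lost without siControl 0 h replicate 2 (-0.27, adjusted p = 0.0899), 3 h replicate 1 (-0.26, 0.0544), 6 h replicate 1 (-0.17, 0.264) or 6 h replicate 2 (-0.26, 0.108).

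**Figure D4:**
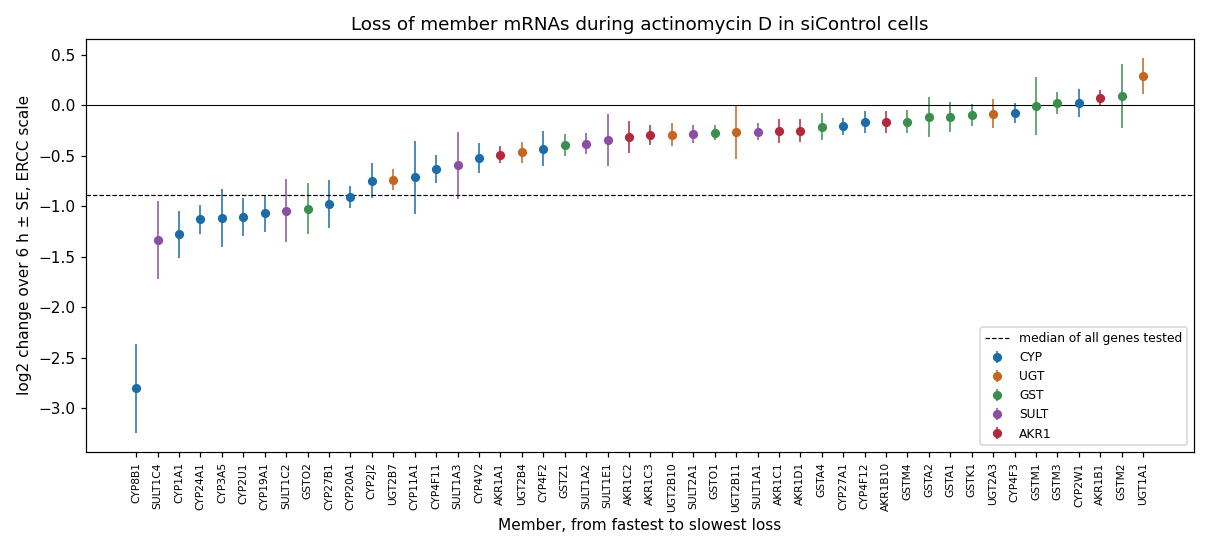
Slopes of the 48 members in siControl cells, as log2 change over 6 h of actinomycin D on the spike-in scale (points, bars ± SE), from fastest to slowest loss and coloured by family. The dashed line is the median of all genes tested, -0.88, and the solid line is no change. CYP8B1 stands lowest at -2.80, and most members lie above the dashed line.

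Short AU-rich words in the 3′ UTR are known landing places of proteins that shorten or protect mRNA tails. The letters ATTTA and TATTTAT (which contains the former) were searched on the transcript strand of the canonical 3′ UTR. Members had shorter 3′ UTRs (median 652 nt) than the 11361 tested genes with an annotated one (1324 nt). ATTTA was found in 28 of 48 members (58.3%, all genes 72.7%) and TATTTAT in 7 (14.6%, all genes 35.3%), and these shares are not matched for length. Of the 3 members whose sites are shown here, CYP8B1 holds ATTTA once and SULT1C2 and SULT1C4 hold TATTTAT once each. Without siControl 0 h replicate 1 the siControl slopes of SULT1C2 and SULT1C4 shrank from -1.05 and -1.33 to -0.47 and -0.94. Their mean levels did not fall further from 3 to 6 h (45.7% and 48.4% for SULT1C2, 33.9% and 40.6% for SULT1C4). The sites (hg38, capitals mark the word, read 5′ to 3′ on the transcript strand) lie on the minus strand at chr3:42873638-42873664 for CYP8B1, 658 nt after the stop codon, and on the plus strand at chr2:108309311-108309337 for SULT1C2 (857 nt) and chr2:108388785-108388811 for SULT1C4 (1363 nt):
CYP8B1: ttgcccagctaATTTAgtttcctggta
SULT1C2: ttcaatttctTATTTATacctctcact
SULT1C4: ctcccagtttTATTTATaccaagcctc
TATTTAT was also present in GSTM3 and CYP4F3, which were among the slowest, and ATTTA was not found in CYP3A5, whose slope was -1.12. The remaining members with TATTTAT were CYP20A1 (4 times), AKR1C1 (2) and AKR1C2 (1). In siControl they had 53.1%, 83.7% and 80.4% left at 6 h. Across members, Spearman's rho between slope and 3′ UTR length was -0.19 (n = 48), and across all genes -0.24 (n = 11361). Between slope and the count of ATTTA, rho was -0.29 across members and -0.24 across all genes. Each rho is a description over genes that share libraries.

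The pattern of slow loss was present after each knockdown. The members' median slope was -0.10 in siIGF2BP1, -0.16 in siIGF2BP2 and -0.16 in siIGF2BP3, where all genes had medians of -0.69, -0.71 and -0.65. In siIGF2BP1 13 members fell and 1 rose (71.7% of all genes called, 69.1% lower and 2.69% higher), in siIGF2BP2 19 fell and 1 rose (73.8%, 71.3% lower and 2.44% higher), and in siIGF2BP3 16 fell and 1 rose (70.1%, 67.2% lower and 2.91% higher). In each knockdown the 1 riser is 2.08% of the members, near the share of all genes called higher. The member that rose on this spike-in scale was AKR1B1 each time, by 0.21, 0.26 and 0.21, named after its values were seen. These calls were lost without either 0 h library or 6 h replicate 1 in siIGF2BP1 (lowest 0.14) and in siIGF2BP3 (lowest 0.17), and without 0 h replicate 1 or 6 h replicate 2 in siIGF2BP2 (lowest 0.17). CYP8B1 had 17.1% and 15.2% left at 6 h in siIGF2BP1, 6.94% and 12.9% in siIGF2BP2 and 4.73% and 10.5% in siIGF2BP3, with half-lifetimes of 2.46, 2.61 and 2.11 h. Median half-lifetimes of the members were 14.4 h in siControl, 21.0 h, 14.2 h and 15.4 h after siIGF2BP1, siIGF2BP2 and siIGF2BP3, over 36, 35, 36 and 32 members, where those of all genes were 5.88, 6.51, 6.21 and 6.61 h. The siIGF2BP1 median moved between 14.8 and 26.4 h when 1 of its libraries was left out, with 15.5 h without 6 h replicate 2.

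**Figure D5:**
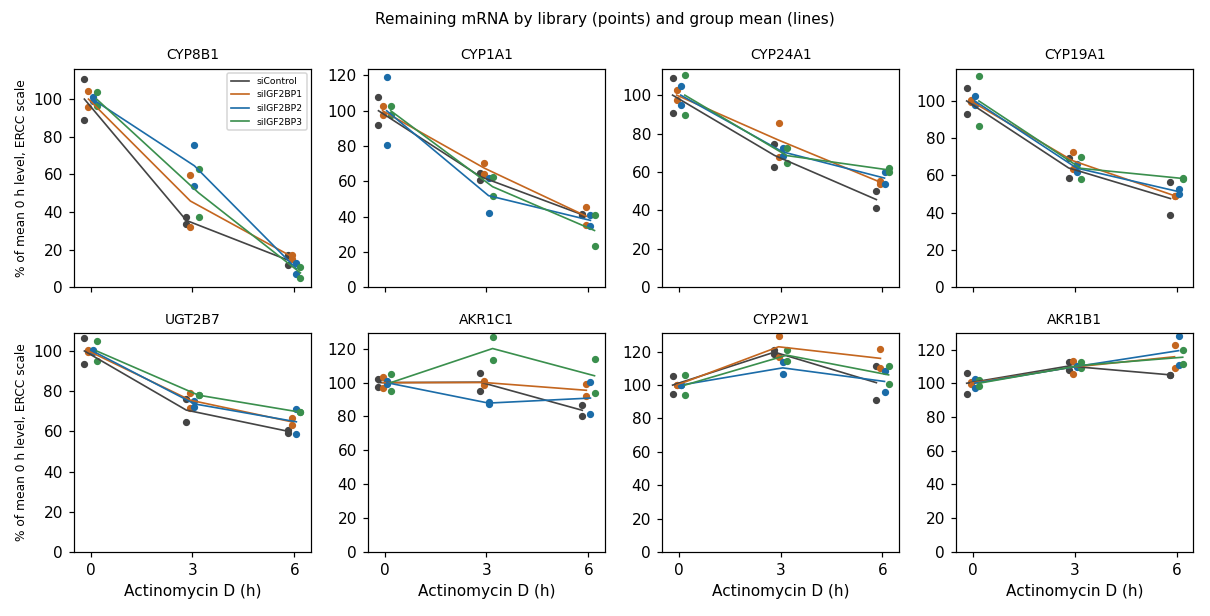
mRNA remaining during actinomycin D for 8 members, as % of the mean 0 h level of the same condition on the spike-in scale, with a point per library and lines through group means in the colours of the key. CYP8B1 falls to 17.1% or less by 6 h in each condition, CYP1A1, CYP24A1 and CYP19A1 end between 23.5% and 62.1%, and AKR1B1 ends above 100% throughout.

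Whether a knockdown changed the loss was tested as a difference of slopes. By edgeR, 0 members were called for siIGF2BP1, siIGF2BP2 or siIGF2BP3 (0.0152%, 0% and 0.0228% of all genes called), and 1, 0 and 4 members had an unadjusted p under 0.05. DESeq2 called 0 members in each as well. The median difference of the members was 0.19, 0.12 and 0.17, beside 0.19, 0.17 and 0.22 for all genes, where a positive value is slower loss in the knockdown. The largest estimate belonged to SULT1C4 in siIGF2BP1 (1.53, SE 0.586, edgeR adjusted p = 0.423), which was near 1 CPM. GSTZ1 had 80.6% and 71.6% left at 6 h in siControl, 96.4% and 93.6% in siIGF2BP1 and 101% and 97.1% in siIGF2BP3. Its slope differences were 0.32 (SE 0.155, edgeR adjusted p = 0.457) and 0.38 (SE 0.156, edgeR adjusted p = 0.29). CYP24A1 differed by 0.42 in siIGF2BP3 (SE 0.199, edgeR adjusted p = 0.306) and 0.31 in siIGF2BP2 (SE 0.198), CYP2U1 by 0.44 in siIGF2BP1 (SE 0.264, edgeR adjusted p = 0.484) and SULT1A2 by 0.30 in siIGF2BP2 (SE 0.148, edgeR adjusted p = 0.643). At such error sizes, 0 calls do not show that loss was equal. Without siControl 0 h replicate 2, SULT1A1 was called for siIGF2BP3 (0.47, edgeR adjusted p = 0.0444).

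Genes that work beside the members were read from lists chosen with earlier results of these data known. Of 11 tested partners that supply electrons or cosubstrates, 6 were higher and 2 lower after siIGF2BP1 (medians 0.12 and 0.01 for the list and all genes), where 9.43% and 6.5% of all genes were called. The glutathione genes GCLM, the modifier subunit of glutamate-cysteine ligase, and GSR, glutathione reductase, rose by 0.25 and 0.20 (log2), CYB5B, a mitochondrial cytochrome b5, fell by 0.26 and PAPSS1, which makes the sulfate donor, fell by 0.16. After siIGF2BP2, where 6.65% and 5.47% of all genes were called, 1 was higher and 2 lower: UGP2, which makes UDP-glucose, rose by 0.15, and CYB5A and CYB5B fell by 0.17 and 0.14. After siIGF2BP3, where 9.39% of all genes were called, CYB5R3, a cytochrome b5 reductase, was the 1 partner called (-0.16).

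Among 26 other drug-metabolizing enzymes, 12 were higher and 4 lower after siIGF2BP1, 2 and 7 after siIGF2BP2, and 4 and 4 after siIGF2BP3, beside 15.9%, 12.1% and 9.39% of all genes called. CES1, the liver carboxylesterase, had 246 and 240 CPM in siControl, 348 and 354 CPM after siIGF2BP1 (log2 difference 0.55) and 286 and 277 CPM after siIGF2BP3 (0.22). ADH4, an alcohol dehydrogenase, rose by 0.46 after siIGF2BP1 and fell by 0.41 after siIGF2BP2. EPHX2, the soluble epoxide hydrolase, fell by 0.32 after siIGF2BP1 and by 0.32 after siIGF2BP3, and TPMT, which methylates thiopurines, fell by 0.31 after siIGF2BP1. FMO5, a flavin monooxygenase, fell by 0.29, 0.55 and 0.37 after siIGF2BP1, siIGF2BP2 and siIGF2BP3. AOX1, aldehyde oxidase, rose by 0.42, 0.24 and 0.22 in the same comparisons, and ALDH1A1, a retinal dehydrogenase, by 0.34, 0.24 and 0.16.

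Of 23 tested regulators of these enzymes, 5 were higher and 2 lower after siIGF2BP1, 2 and 1 after siIGF2BP2 and 3 and 1 after siIGF2BP3, beside the same shares of all genes (15.9%, 12.1% and 9.39%), and the siIGF2BP2 count is near its background. NR1H4, the bile acid receptor FXR, had 87.3 and 86.8 CPM in siControl, 124 and 127 CPM after siIGF2BP1 (0.54), 78.5 and 76.9 CPM after siIGF2BP2 (-0.16) and 106 and 110 CPM after siIGF2BP3 (0.32), and passed each time. CEBPA rose by 0.32 and NR0B2, the repressor SHP, fell by 0.35 after siIGF2BP1, and PROX1 fell by 0.15. NR3C1, the glucocorticoid receptor, and FOXA1 rose by 0.31 and 0.30 after siIGF2BP2. AHR, the dioxin receptor, fell by 0.43 and ONECUT1 rose by 0.23 after siIGF2BP3. Of 10 tested transporters, 4 were higher and 0 lower after siIGF2BP1, 1 and 3 after siIGF2BP2 and 1 and 1 after siIGF2BP3 (all genes 15.9%, 12.1% and 9.39%). SLC22A7, the anion transporter OAT2, rose by 0.65 and 0.40 after siIGF2BP1 and siIGF2BP3 and fell by 0.31 after siIGF2BP2. SLCO2B1 rose by 0.26 after siIGF2BP1, SLC22A9 rose by 1.04 after siIGF2BP2 from under 2 CPM, and ABCC3, an efflux pump of glucuronides, fell by 0.57 and 0.16 after siIGF2BP2 and siIGF2BP3.

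The same lists gave a scale for the loss in siControl, where 80.3% of all genes tested were called lower, with a median slope of -0.88. All 23 regulators fell, with a median slope of -2.43 and half-lifetimes such as 1.04 h for CEBPA and 5.25 h for HNF4A, and all 11 short-lived control mRNAs fell with a median of -4.55. Of the partners 7 of 11 fell (median -0.47), of the other enzymes 14 of 26 (-0.24), of the transporters 7 of 10 (-0.46), and of the hepatoma markers 1 of 10 (0.02). The members' median of -0.31 lay between those of the transporters and the other enzymes.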

How the data were processed

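The deposited files hold 1 count of reads per gene for each of 24 libraries. Per the labels and methods, the authors trimmed reads with Trimmomatic 0.39, aligned them to hg38 with HISAT2 2.1.0 and counted them per gene with HTSeq, with ERCC RNA added per amount of total RNA. Counting settings were not given in the sources used here, so reads of near-identical genes may be lost or split. The 5 summary rows (13.6% to 17.1% of the counted reads), 92 ERCC rows and 45 pseudoautosomal Y rows were left out of gene reads. Names came from GENCODE v44, which matched 58207 identifiers and left 469 unmatched. The members and lists were chosen with earlier results of these data known.

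Groups came from the labels. Genes with at least 1 CPM in at least 2 libraries (13136) were fitted with edgeR 4.0.16 (R 4.3.3), two-sided quasi-likelihood tests and Benjamini-Hochberg adjustment over all of them at 0.05. Levels were fitted as 12 group means with TMM scaling, and slopes as a line over time per condition with ERCC scaling. A half-lifetime is ln 2 over the mean of the decay rates from 0 to 3 h and 0 to 6 h. Tables were made with Python 3.11.15, and the fits were tested on simulated data. Members named by rule were the 3 highest of each family, up to 4 called rises and 4 called falls in each 0 h comparison by size, the 4 lowest and 4 highest siControl slopes and the 2 largest slope differences per knockdown at 5 CPM or more, and those beside the minimum. From each other list, up to 2 rises and 2 falls per comparison with siControl were named. Any other values of a gene were added after they were seen. Alternatives were ERCC or TMM scaling, DESeq2 1.42.0, other filters, only the compared groups, the mean of 3 and 6 h, a replicate block and each library left out. Same-numbered replicates did not deviate together between conditions at 0 h (6 pairs, -0.026 to 0.039). Over times within a condition they did in siIGF2BP3 (3 pairs, 0.112 to 0.164) and not in the others (at most 0.034). The methods split each transfected plate over the times, but no source ties numbers to plates, so slopes were also fitted with a replicate block within condition, and 3 and 6 h libraries also summed per number, both chosen after seeing the data. CPM carries counting error only beside the spread between 2 libraries.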

Additional observations from a re-analysis of the deposited data

Results flagged for a closer look

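AKR1B10 at 0 h was called higher than siControl after siIGF2BP1 and lower after siIGF2BP2, and the direct comparison of the knockdowns was called as well, with a log2 difference of 0.57. The fall after siIGF2BP2 was not called without siControl replicate 2 or siIGF2BP2 replicate 2. SULT2A1 was called lower after siIGF2BP1 and higher after siIGF2BP2, with a direct log2 difference of -0.47, and held both calls without each library in turn. UGT2B10 was called lower after siIGF2BP1 and higher after siIGF2BP3, with a direct log2 difference of -0.54, which held without each library in turn and was -0.25 over the mean of 3 and 6 h. Over those times the rise after siIGF2BP3 was absent (0.00, edgeR adjusted p = 0.96). Its calls against siControl were lost without siControl replicate 1 in the first case, and without siControl replicate 2 or siIGF2BP3 replicate 2 in the other.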

How the results depend on the processing

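With 2 libraries a group, calls of small differences rest on single libraries. Counts in this section check the processing and are given without the share of all genes called. Leaving out 1 library at a time, member counts at 0 h ranged from 12 to 14 (siIGF2BP1), 5 to 7 (siIGF2BP2) and 7 to 9 (siIGF2BP3), and between knockdowns from 13 to 15 (siIGF2BP1 and siIGF2BP2), 7 to 11 (siIGF2BP1 and siIGF2BP3) and 6 to 8 (siIGF2BP2 and siIGF2BP3). Slope counts ranged from 18 to 29 (siControl), 12 to 15, 14 to 24 and 13 to 17 (the knockdowns in order), slope differences from 0 to 0, 0 to 0 and 0 to 1, and median half-lifetimes from 11.8 to 15.5 h (siControl), 14.8 to 26.4 h, 13.1 to 15.5 h and 13.1 to 18.6 h. With ERCC scaling at 0 h, 2 members were called after siIGF2BP2, 11 between siIGF2BP1 and siIGF2BP2 and 6 between siIGF2BP1 and siIGF2BP3. Over the mean of 3 and 6 h, 18 were called after siIGF2BP2, 18 after siIGF2BP3 and 19 between those knockdowns, and with those libraries summed per replicate 16, 16 and 18. With TMM scaling, slope counts were 33, 34 and 33 in the knockdowns, mostly rises because TMM sets the typical mRNA to no change, CYP4F3 in siControl reversed to 0.79, and median half-lifetimes were 18.9, 47.4, 19.4 and 24.1 h in siControl and the knockdowns. Of 43 called values of named members at 0 h, 13 were lost under ERCC scaling, 4 under DESeq2 and 5 over the mean of 3 and 6 h. DESeq2 gave no adjusted p for SULT1C4 and CYP8B1. With the replicate number as a block, counts were 16, 8 and 10 against siControl, 18, 15 and 7 between knockdowns, 27, 14, 20 and 17 for slopes and 0, 0 and 0 for slope differences, and 0 of 47 named calls were lost. Correlations of same-numbered samples were -0.044 to 0.217. With a replicate block within condition, added after seeing the data, slope counts were 28, 13, 21 and 17 and slope differences again 0, 0 and 0, CYP4V2 in siIGF2BP1 being lost (adjusted p = 0.059) and GSTM3 in siIGF2BP2 gained (0.0482). Members near 1 CPM, such as SULT1C4, are limited by depth.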
